A study of Homo sapiens with 12 samples.

Results

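The mitochondrially encoded genes are the genes carried by the mitochondrial chromosome itself. They were chosen by name, as the genes of the deposited tables whose symbol starts with MT-, and the rule found 37 of 58302 genes: 13 protein genes, 2 rRNAs and 22 tRNAs. RNA sequencing was run on 12 libraries from 2 cell lines, 769-P and ACHN, which the labels give as clear cell renal cell carcinoma cells. In each line 3 libraries came from cells treated for 48 h with siNUF2, a small interfering RNA against the kinetochore gene NUF2, and 3 from cells treated with siControl. The siNUF2 reagent was a mixture of 2 siRNAs, as the study's supplement describes it. No other allele or agent is given for any group. The study's methods give RPMI medium for 769-P and Eagle's MEM medium for ACHN. A difference between the lines therefore cannot be told apart from one between the media. Each line stands for 1 tumour, siRNA lowers its target without removing the gene, and no label says whether replicates came from separate cultures, so the p-values measure only the spread between these libraries, which may be technical. The study compared the siRNAs within each line. Here the same question is put to the mitochondrial genes, and their level is also compared between the lines.

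Values are FPKM, fragments counted per unit of gene length and of library depth, as deposited, and values of 3 libraries are listed in the order of replicates 1, 2 and 3. Each FPKM value of the 37 genes was a whole number of counted reads once the annotated gene length was put back (largest deviation 0.0133 of a read), so the reads behind each value are known. The libraries held between 29156132 and 38662438 such reads over all genes, and the mitochondrial genes took between 1704016 and 2480146 of them. NUF2 itself was at 3.01 to 4.17 FPKM in 769-P siNUF2 against 17.8 to 19.4 in 769-P siControl, and at 2.16 to 5.14 FPKM in ACHN siNUF2 against 11.6 to 15.0 in ACHN siControl, without overlap in either line. The log2 difference was −2.29 ± 0.13 in 769-P (adjusted p = 0.00129 from limma) and −1.87 ± 0.32 in ACHN (adjusted p = 0.224, or 0.0122 with the replicate number as a block). Of the markers of renal carcinoma cells, PAX8, PAX2, KRT8, KRT18 and VIM were above 5 FPKM in all 12 libraries, CDH6 was above 2 FPKM in the 769-P libraries but at most 0.00472 FPKM in ACHN, and CA9, a target of the hypoxia response in this tumour type, was at most 0.121 FPKM in all 12. Of 9 markers of leukocytes, endothelium and fibroblasts, 7 stayed below 0.4 FPKM in all 12 libraries, and COL1A1 and PDGFRB reached 3.87 and 2.79 FPKM in ACHN.

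The mitochondrial chromosome is a small circle that is transcribed from both strands into long precursors by the polymerase POLRMT with the factors TFAM and TFB2M. The tRNAs lie between the other genes, and their removal by endonucleases frees the mRNAs and rRNAs, a model known as tRNA punctuation. All of its proteins are subunits of the respiratory chain or of the ATP synthase, and its rRNAs and tRNAs serve only the ribosomes inside the organelle. Renal tubule cells are rich in mitochondria, and clear cell renal carcinoma is known for a shift away from respiration. Because the genes share precursors, the members are not replicates of each other.

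Several of these genes touch or share bases, and the sequences of the transcripts on which the results turn are printed here from GENCODE 29 (GRCh38), 5′ to 3′. The first set is 5 tRNAs of the reverse strand, shown because 4 of them held nearly all tRNA reads while the fifth, MT-TA, lies next to MT-TN and had few reads. The capitals mark the anticodon, found as the centre of the loop of 7 bases with the most paired bases in its stem. MT-TA (alanine) is at chrM:5587-5655, MT-TN (asparagine) at chrM:5657-5729, MT-TC (cysteine) at chrM:5761-5826, MT-TY (tyrosine) at chrM:5826-5891 and MT-TP (proline) at chrM:15956-16023.
MT-TA: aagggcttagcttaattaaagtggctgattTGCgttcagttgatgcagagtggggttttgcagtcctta
MT-TN: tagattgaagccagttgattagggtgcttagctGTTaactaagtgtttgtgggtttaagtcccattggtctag
MT-TC: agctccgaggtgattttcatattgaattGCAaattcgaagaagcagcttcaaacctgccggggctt
MT-TY: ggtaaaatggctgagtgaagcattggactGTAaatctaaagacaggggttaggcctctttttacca
MT-TP: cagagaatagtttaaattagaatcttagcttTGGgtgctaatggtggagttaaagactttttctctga
MT-TC and MT-TY share 1 base, and 12 bases lie between the start of MT-TY and the start of MT-CO1 on the other strand.

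The second set shows the overlaps between protein genes, since a read in them could be counted for either gene. MT-ATP8 (chrM:8366-8572, forward strand) is given whole, with the 46 bases that it shares with the start of MT-ATP6 in capitals, and the last 60 bases of MT-ND4L (chrM:10707-10766, forward strand) are given with the 7 bases shared with MT-ND4 in capitals.
MT-ATP8: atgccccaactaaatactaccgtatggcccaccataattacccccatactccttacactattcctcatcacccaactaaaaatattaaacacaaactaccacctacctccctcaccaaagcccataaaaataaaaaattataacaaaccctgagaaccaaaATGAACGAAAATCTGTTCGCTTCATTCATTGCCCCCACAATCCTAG
MT-ND4L: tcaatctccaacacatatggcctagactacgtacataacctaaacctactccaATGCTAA
Of the 13 protein genes, 7 end in a full stop codon and 6 end in T or TA, which adding A turns into a stop codon. These 6 are MT-ND1, MT-ND2, MT-CO3, MT-ND3, MT-ND4 and MT-CYB, whose reading frame is closed by the poly(A) tail after the precursor is cut. How reads in shared bases were assigned, and whether counting used strand, are not given in the sources used here, so the values of MT-ATP8, MT-ATP6, MT-ND4L and MT-ND4, of tRNAs that overlap, and of genes with a transcript on the opposite strand are uncertain to that extent.

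The 13 mRNAs took between 17.4% and 20.8% of the summed FPKM of all genes in a library. Per group their share was 19.9% ± 1.22 in 769-P siNUF2, 19.1% ± 1.24 in 769-P siControl, 18.4% ± 0.476 in ACHN siNUF2 and 17.8% ± 0.527 in ACHN siControl (mean ± SD, n = 3 in each). The share is a description of each library and was not tested. By level the 13 mRNAs were among the most abundant RNAs of the cells, all within the top 36 genes of every library. The top 10 genes of each 769-P library held 9 or 10 mitochondrial genes of any kind. Those of each ACHN library held 8 or 9. These counts include the rRNA MT-RNR2, which ranked 2 or 3 in every 769-P library and 8 or 9 in every ACHN library. The 37 genes together took 6.43% to 7.59% of reads in 769-P and 4.95% to 5.56% in ACHN. In bulk samples fewer cells or mitochondria of a kind and less RNA in each cannot be told apart.

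**Figure D1:**
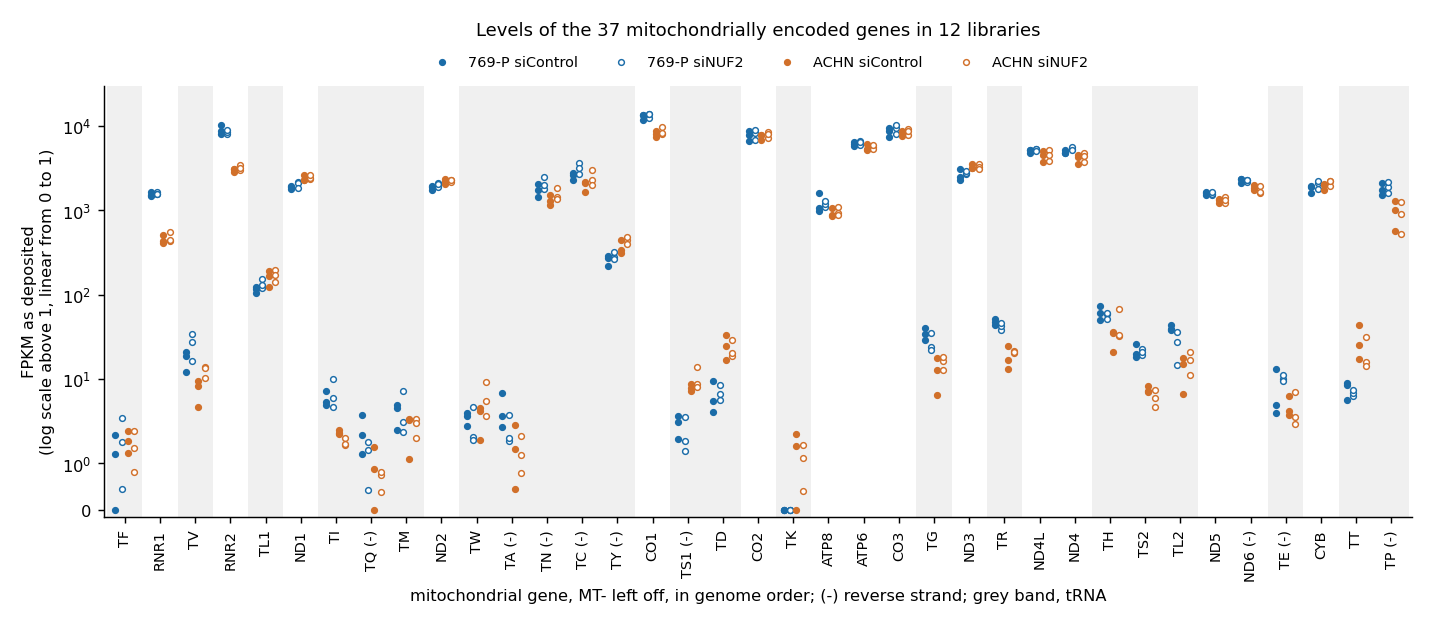
FPKM as deposited (log scale above 1) of the 37 mitochondrial genes in genome order, 1 point per library, filled for siControl and open for siNUF2, blue for 769-P and orange for ACHN, with tRNAs on a grey band. The mRNAs lie between 859.5 and 14097 FPKM, 4 reverse-strand tRNAs lie above 200 FPKM, most other tRNAs lie far lower, and filled and open points of a line lie close together.

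Complex IV, cytochrome c oxidase, which passes electrons to oxygen, had the most abundant mRNAs. Its 3 mRNAs held 45.7% to 51.8% of the summed FPKM of the 13 mRNAs in the 12 libraries. MT-CO1, the catalytic subunit, was at 12428, 13851 and 14097 FPKM in 769-P siNUF2, 11968, 13592 and 13633 in 769-P siControl, 9695, 8131 and 8288 in ACHN siNUF2 and 8740.0, 7421 and 8162 in ACHN siControl. All 6 769-P values of MT-CO1 lay above all 6 ACHN values. MT-CO2, which takes up electrons from cytochrome c, was at 6918, 8236 and 9101 FPKM in 769-P siNUF2, 6665, 7961 and 8725 in 769-P siControl, 8509.9, 7325 and 7976 in ACHN siNUF2 and 7765, 6849 and 7776 in ACHN siControl. MT-CO3, the third core subunit, was at 8020.2, 9457 and 10260.4 FPKM in 769-P siNUF2, 7388, 8844 and 9556 in 769-P siControl, 9198, 7805 and 8675 in ACHN siNUF2 and 8271, 7573 and 8756 in ACHN siControl. Neither MT-CO2 nor MT-CO3 separated the lines, and within 769-P both were lowest in replicate 1 and highest in replicate 3 under either siRNA. MT-CO1 was 1.55 to 1.80 times MT-CO2 in the 769-P libraries and 1.04 to 1.14 times MT-CO2 in the ACHN libraries.

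The 2 subunits of complex V, the ATP synthase, were at 11.5% to 13.3% of the 13 mRNAs. MT-ATP6, part of the proton channel, was at 6054, 6653 and 6561 FPKM in 769-P siNUF2, 5742, 6509.7 and 6137 in 769-P siControl, 5719, 5406 and 6039.9 in ACHN siNUF2 and 5361, 5254 and 6100.2 in ACHN siControl. MT-ATP8, a small subunit read from the same mRNA, was at 1109, 1199 and 1294 FPKM in 769-P siNUF2, 974, 1083 and 1609 in 769-P siControl, 943, 895 and 1096 in ACHN siNUF2 and 859.5, 891 and 1071 in ACHN siControl. On the FPKM scale, which is per length, MT-ATP8 was 0.160 to 0.262 times MT-ATP6, although the overlap shown above places both on a single transcript. Its highest value was 769-P siControl replicate 3, which lay apart from the other 769-P siControl libraries.

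Complex I, NADH dehydrogenase, takes 7 of the 13 mRNAs, and these held 32.6% to 39.0% of the summed mRNA FPKM. MT-ND1 was at 2156, 2108 and 1865 FPKM in 769-P siNUF2, 1899, 1970.5 and 1805 in 769-P siControl, 2367, 2444 and 2642 in ACHN siNUF2 and 2331, 2298 and 2664 in ACHN siControl. MT-ND2 was at 1919, 2147 and 2078 FPKM in 769-P siNUF2, 1755, 1961 and 1922 in 769-P siControl, 2292, 2154 and 2288 in ACHN siNUF2 and 2229.9, 2079 and 2341 in ACHN siControl. Under siControl both genes were lower in every 769-P library than in every ACHN library. MT-ND3 was at 2719.8, 2758 and 2954 FPKM in 769-P siNUF2, 2322, 2496 and 3088 in 769-P siControl, 3578, 3323 and 3137 in ACHN siNUF2 and 3601, 3206 and 3225 in ACHN siControl. MT-ND4L was at 5325, 5416 and 5012 FPKM in 769-P siNUF2, 4753, 5209 and 5176 in 769-P siControl, 5195, 3840.4 and 4534 in ACHN siNUF2 and 5013, 3785 and 4494 in ACHN siControl, and MT-ND4, with which it shares a transcript, was at 5289.8, 5718 and 5229 FPKM in 769-P siNUF2, 4808, 5282 and 4781 in 769-P siControl, 4852, 3795 and 4440.5 in ACHN siNUF2 and 4569, 3599 and 4272 in ACHN siControl. These overlapping genes were close to equal per length, with MT-ND4L at 0.947 to 1.097 times MT-ND4. In ACHN both were lowest in replicate 2 under either siRNA.

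MT-ND5, whose end lies next to the end of MT-ND6 on the opposite strand, was at 1539.7, 1581 and 1656 FPKM in 769-P siNUF2, 1539.5, 1631 and 1679 in 769-P siControl, 1455, 1229 and 1318 in ACHN siNUF2 and 1354, 1239 and 1342 in ACHN siControl. MT-ND6, the only protein gene of the reverse strand, was at 2179.6, 2288 and 2288 FPKM in 769-P siNUF2, 2141, 2369 and 2395 in 769-P siControl, 1966, 1613 and 1671 in ACHN siNUF2 and 1999, 1769 and 1863 in ACHN siControl. MT-ND6 was at 1.27 to 1.48 times its neighbour MT-ND5 in the 12 libraries. MT-CYB, the cytochrome b of complex III and the only mitochondrial subunit of that complex, was at 1776, 2103 and 2247 FPKM in 769-P siNUF2, 1591, 1956 and 1893 in 769-P siControl, 2233, 1953 and 2250.3 in ACHN siNUF2 and 2041, 1759 and 2003 in ACHN siControl. It was the mRNA with the highest fitted difference between siNUF2 and siControl in both lines, as given further on.

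Under siControl the order of the 15 mRNAs and rRNAs in 769-P ran from MT-CO1 (13064 ± 949.7 FPKM, mean ± SD, n = 3) over MT-RNR2 (9069 ± 1159), MT-CO3 (8596 ± 1105), MT-CO2 (7784 ± 1042) and MT-ATP6 (6129.6 ± 384) down to MT-RNR1 (1568 ± 94.7) and MT-ATP8 (1222 ± 339). Of the neighbours in this order, MT-RNR2, MT-CO3 and MT-CO2 overlapped in their ranges, as did MT-ND4L and MT-ND4, MT-ND3 and MT-ND6, and the run from MT-ND1 over MT-ND2, MT-CYB, MT-ND5 and MT-RNR1 to MT-ATP8. In ACHN the order began with MT-CO3 (8199.9 ± 595 FPKM) and MT-CO1 (8108 ± 661), whose ranges overlapped, and ended with MT-ATP8 (941 ± 114) and MT-RNR1 (453 ± 53.9), whose ranges did not. MT-RNR2 stood at rank 2 among the 15 in 769-P and at rank 8 in ACHN.

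The 2 rRNAs showed the clearest separation between the lines. MT-RNR1, the RNA of the small ribosomal subunit (chrM:648-1601), was at 1667, 1579 and 1585 FPKM in 769-P siNUF2, 1497, 1530.3 and 1675 in 769-P siControl, 553, 432 and 447 in ACHN siNUF2 and 513, 410.2 and 434 in ACHN siControl. MT-RNR2, the RNA of the large subunit (chrM:1671-3229), was at 8085, 8605 and 9110.2 FPKM in 769-P siNUF2, 8040.0, 8844 and 10324 in 769-P siControl, 3473, 3051 and 3214 in ACHN siNUF2 and 3143, 2881 and 3100.4 in ACHN siControl. No 769-P library overlapped an ACHN library for either rRNA, while the siRNA groups overlapped within each line. Together they took 1.37% to 1.73% of reads in 769-P and 0.503% to 0.562% in ACHN. MT-RNR2 was 4.85 to 7.20 times MT-RNR1 per length, although both are cut from the same precursor.

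The tRNAs were uneven in level, and the values of most rest on few reads. The 22 tRNA genes together took 0.0293% to 0.0570% of the reads of a library. Reads from mature tRNAs and from uncut precursors cannot be told apart here, so the values are levels of the genes and not of mature tRNAs. Of the 22 tRNAs, 8 lie on the reverse strand, and 4 of these, MT-TN, MT-TC, MT-TY and MT-TP, held between 91.0% and 95.4% of all tRNA reads of a library. MT-TC was at 2746, 3612 and 3205 FPKM in 769-P siNUF2, 2287, 2752 and 2671 in 769-P siControl, 3020.1, 2279.9 and 2014 in ACHN siNUF2 and 2116, 1664 and 2178 in ACHN siControl. MT-TN was at 1811, 2488 and 2031 FPKM in 769-P siNUF2, 1451, 1772 and 2059 in 769-P siControl, 1871, 1426 and 1371 in ACHN siNUF2 and 1537, 1172 and 1285 in ACHN siControl. MT-TY was at 284, 323 and 265 FPKM in 769-P siNUF2, 285, 277 and 222 in 769-P siControl, 443, 480.4 and 397 in ACHN siNUF2 and 316, 344 and 452 in ACHN siControl. MT-TC thus had the highest FPKM of the tRNA genes in all 12 libraries. MT-TA, whose sequence stands beside those of the 4 tRNAs above, was at only 1.85, 2.02 and 3.77 FPKM in 769-P siNUF2, 6.89, 3.62 and 2.68 in 769-P siControl, 0.793, 2.09 and 1.27 in ACHN siNUF2 and 0.462, 1.504 and 2.88 in ACHN siControl. Each MT-TA value rests on 1 to 14 reads.

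MT-TP, the tRNA next to the control region, was at 1883, 1606 and 2179.9 FPKM in 769-P siNUF2, 1764, 1537 and 2094 in 769-P siControl, 1264, 524 and 909.5 in ACHN siNUF2 and 1303, 572 and 1005 in ACHN siControl. In ACHN replicate 1 was highest and replicate 2 lowest under both siRNAs. In 769-P replicate 3 was highest and replicate 2 lowest under both, so in each line the replicates kept their own order across the siRNAs. The tRNA gene with the next highest FPKM was MT-TL1, a leucine tRNA of the forward strand between MT-RNR2 and MT-ND1, at 154, 121 and 132 FPKM in 769-P siNUF2, 124, 116 and 106 in 769-P siControl, 142, 199 and 171 in ACHN siNUF2 and 125, 167 and 192 in ACHN siControl.

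A group of 6 forward-strand tRNAs beside abundant mRNAs and rRNAs was at intermediate levels. MT-TV (valine), between the rRNAs, was at 34.2, 16.6 and 27.8 FPKM in 769-P siNUF2, 21.2, 19.0 and 12.1 in 769-P siControl, 10.3, 13.8 and 13.5 in ACHN siNUF2 and 4.62, 9.40 and 8.24 in ACHN siControl. MT-TG (glycine), between MT-CO3 and MT-ND3, was at 24.4, 35.3 and 21.99 FPKM in 769-P siNUF2, 40.9, 33.9 and 29.1 in 769-P siControl, 16.5, 18.3 and 12.9 in ACHN siNUF2 and 6.56, 12.97 and 18.0 in ACHN siControl. MT-TR (arginine), between MT-ND3 and MT-ND4L, was at 38.7, 42.8 and 46.0 FPKM in 769-P siNUF2, 48.1, 51.8 and 43.7 in 769-P siControl, 20.6, 21.8 and 21.1 in ACHN siNUF2 and 16.7, 13.2 and 24.5 in ACHN siControl. All 3 were higher in every 769-P siControl library than in every ACHN siControl library. The cluster after MT-ND4 followed the same direction under siControl. Its MT-TH (histidine) was at 58.7, 60.5 and 51.4 FPKM in 769-P siNUF2, 73.8, 50.2 and 60.4 in 769-P siControl, 32.9, 68.2 and 33.8 in ACHN siNUF2 and 21.2, 36.5 and 35.0 in ACHN siControl. Its MT-TS2 (serine) was at 19.4, 23.0 and 20.9 FPKM in 769-P siNUF2, 25.9, 18.5 and 19.9 in 769-P siControl, 4.63, 7.34 and 5.94 in ACHN siNUF2 and 7.02, 8.36 and 7.23 in ACHN siControl, without overlap of the lines under either siRNA. Its MT-TL2 (leucine) was at 27.4, 36.2 and 14.7 FPKM in 769-P siNUF2, 39.7, 37.8 and 43.5 in 769-P siControl, 20.8, 16.7 and 11.1 in ACHN siNUF2 and 6.73, 15.0 and 17.6 in ACHN siControl.

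By contrast 3 tRNAs that were low in 769-P were higher in ACHN, and for these, as for MT-TY above, the lines did not overlap under either siRNA. In ACHN MT-TD and MT-TT lay above MT-TV and MT-TS2 of the group just described. MT-TD (aspartate) was at 5.62, 6.65 and 8.60 FPKM in 769-P siNUF2, 5.49, 9.63 and 4.09 in 769-P siControl, 18.9, 28.9 and 20.6 in ACHN siNUF2 and 16.9, 24.8 and 33.4 in ACHN siControl. MT-TT (threonine) was at 6.28, 6.85 and 7.39 FPKM in 769-P siNUF2, 5.66, 8.98 and 8.42 in 769-P siControl, 16.2, 31.5 and 14.2 in ACHN siNUF2 and 17.4, 44.4 and 25.4 in ACHN siControl. MT-TS1 (serine), on the reverse strand after MT-CO1, was at 1.85, 3.53 and 1.41 FPKM in 769-P siNUF2, 1.97, 3.62 and 3.13 in 769-P siControl, 8.72, 13.8 and 8.04 in ACHN siNUF2 and 7.85, 7.14 and 8.65 in ACHN siControl. Their values rest on 3 to 113 reads per library.

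The 7 tRNAs that remain were at most 13.1 FPKM. MT-TI (isoleucine) was at 10.2, 6.05 and 4.71 FPKM in 769-P siNUF2, 5.41, 4.97 and 7.16 in 769-P siControl, 1.98, 1.67 and 1.69 in ACHN siNUF2 and 2.31, 2.26 and 2.47 in ACHN siControl, and every 769-P library lay above every ACHN library. MT-TE (glutamate) was at 10.2, 11.1 and 9.42 FPKM in 769-P siNUF2, 3.94, 13.1 and 4.92 in 769-P siControl, 3.57, 7.11 and 2.96 in ACHN siNUF2 and 4.16, 6.39 and 3.71 in ACHN siControl. MT-TM (methionine) was at 2.34, 3.07 and 7.17 FPKM in 769-P siNUF2, 2.50, 4.59 and 4.99 in 769-P siControl, 2.01, 3.40 and 3.00 in ACHN siNUF2 and 3.28, 1.14 and 3.34 in ACHN siControl. MT-TE and MT-TM overlapped between the lines under siControl. MT-TW (tryptophan) was at 4.69, 2.04 and 1.91 FPKM in 769-P siNUF2, 3.99, 2.75 and 3.63 in 769-P siControl, 3.62, 9.34 and 5.58 in ACHN siNUF2 and 1.87, 4.58 and 4.18 in ACHN siControl. MT-TF (phenylalanine) was at 1.80, 3.43 and 0.458 FPKM in 769-P siNUF2, 0, 2.20 and 1.30 in 769-P siControl, 1.54, 2.44 and 0.822 in ACHN siNUF2 and 1.35, 1.83 and 2.40 in ACHN siControl. MT-TQ (glutamine) was at 0.443, 1.45 and 1.81 FPKM in 769-P siNUF2, 3.77, 2.17 and 1.29 in 769-P siControl, 0.760, 0.401 and 0.811 in ACHN siNUF2 and 0.885, 0 and 1.58 in ACHN siControl. For MT-TF and MT-TQ these values rest on 0 to 8 reads per library. MT-TK (lysine), between MT-CO2 and MT-ATP8, had 0 reads in all 6 769-P libraries, which allows up to 3 reads or between 1.32 and 1.49 FPKM in each of them, and had 3, 4 and 1 reads in ACHN siNUF2 and 0, 6 and 4 in ACHN siControl. Limits of this kind cover counting error only.

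Copies of mitochondrial genes inserted in nuclear chromosomes can share reads with the genes described here. The tables name 405 such copies, and 3 of them, all on chromosome 1, were above 10 FPKM in every library. MTATP6P1 (chr1:633696-634376) was 98.5% identical to MT-ATP6 over 681 aligned bases and was at 458, 489 and 469 FPKM in 769-P siNUF2, 361, 419 and 521 in 769-P siControl, 319.6, 311 and 367 in ACHN siNUF2 and 326, 328 and 317 in ACHN siControl. MTND2P28 was 98.2% identical to MT-ND2 and MTCO1P12 98.6% identical to MT-CO1, and they ranged from 108 to 169 FPKM and from 27.1 to 58.8 FPKM. Each copy was below its mitochondrial counterpart in every library. How reads that match both were assigned is not given in the sources used here.

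The comparison of siNUF2 with siControl asked whether depletion of NUF2 changes the mitochondrial transcripts. In 769-P none of the 36 mitochondrial genes tested passed an adjusted p of 0.05 by limma with Benjamini-Hochberg adjustment over all genes, where 9.98% of all 14155 genes tested did. At an unadjusted p under 0.05 there were 2, MT-TC and MT-TL2, where 27.4% of all genes were, and limma-voom on the recovered reads also called 0 members, where it called 13.4% of all genes. The fold changes of the 13 mRNAs, on the log2 scale of scaled FPKM plus 0.1, ran from −0.019 to 0.18 with a median of 0.079, and 11 of 13 were above 0, while the median of all genes was −0.0090. MT-CYB differed by 0.18 ± 0.11 (SE, n = 3 per group, adjusted p = 0.336), MT-ND4 by 0.14 ± 0.065 (adjusted p = 0.224), MT-ND2 by 0.13 ± 0.067 (adjusted p = 0.245) and MT-CO3 by 0.12 ± 0.12 (adjusted p = 0.580), all from limma. The rRNAs differed by 0.051 ± 0.064 for MT-RNR1 and −0.060 ± 0.10 for MT-RNR2, on either side of 0.

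Same-numbered libraries of a line deviated together over all genes. Over the members alone the correlations of these deviations were −0.18, 0.54 and −0.52 for replicates 1, 2 and 3 in 769-P (36 genes) and 0.24, 0.64 and −0.11 in ACHN (37 genes), on either side of 0 in both lines. With the replicate number as a block 5 mitochondrial genes were called in 769-P, all higher under siNUF2, where 27.5% of all genes were called. They were MT-TC (0.32 ± 0.039, adjusted p = 0.00849), MT-ND4 (± 0.029, adjusted p = 0.0274), MT-ND2 (± 0.030, adjusted p = 0.0301), MT-CYB (± 0.041, adjusted p = 0.0317) and MT-CO3 (± 0.029, adjusted p = 0.0393) from limma with the block. Each of the 5 was higher in 3 of 3 same-numbered pairs. For MT-ND4 the differences of the pairs were 0.14, 0.12 and 0.15 on the log2 scale, and for MT-ND2 they were 0.14, 0.14 and 0.13. As a share, 5 of 36 is lower than that over all genes. Without a filter on low values the block called 0 of 36, and 4.81% of all genes.

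In 769-P 3 of the 36 members did not overlap between the siRNA groups, where 33% of all genes did not overlap. These were MT-ND4 and MT-TC, higher under siNUF2 in every library, and MT-TL2, lower in every library (−0.71 ± 0.30, adjusted p = 0.177 from limma). The smallest two-sided p that an exact permutation test over 6 libraries can give is 0.1, and these 3 genes reached it. MT-TE became the only member called when 769-P siControl replicate 2 was left out (1.20 on the log2 scale, adjusted p = 0.0204 from limma), where 2.63% of all genes were called. The library left out had 29 MT-TE reads, against 8 and 11 in 769-P siControl replicates 1 and 3. MT-TE rests on 7 to 29 reads in the 12 libraries.

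**Figure D2:**
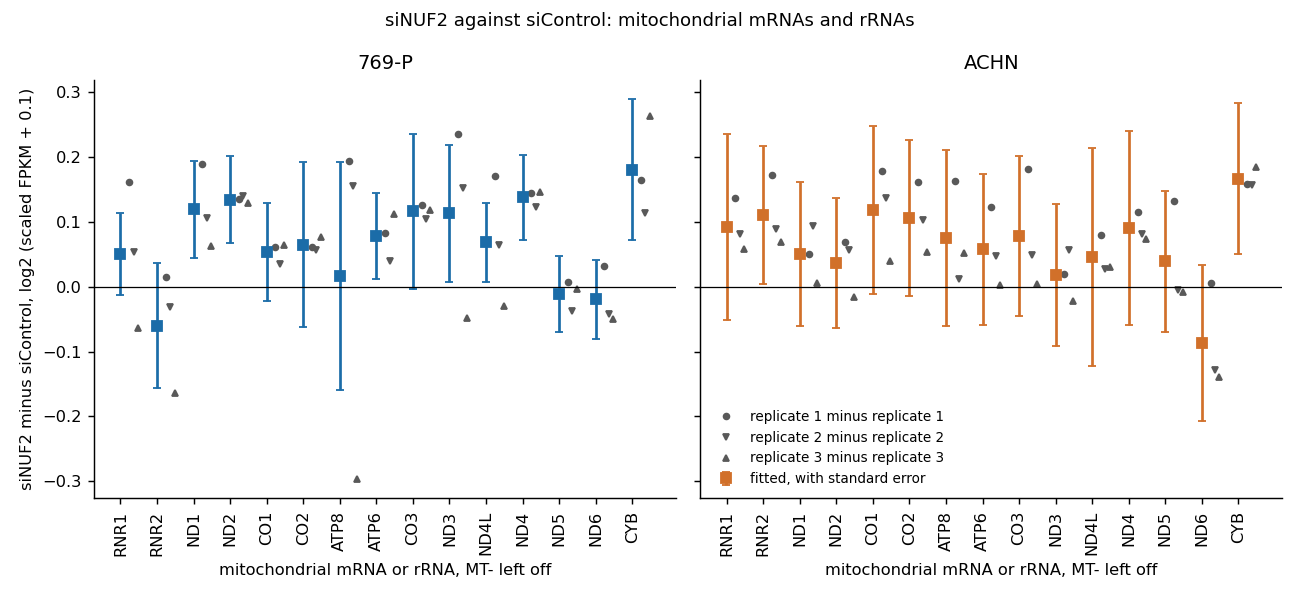
siNUF2 minus siControl on the log2 scale of scaled FPKM plus 0.1 for the 13 mRNAs and 2 rRNAs, with 769-P left and ACHN right; squares and bars give the fitted difference and its standard error, grey symbols the differences of the 3 same-numbered library pairs. The fitted mRNA differences lie between −0.087 and 0.18, most above 0, with MT-CYB highest and MT-ND6 lowest in both lines.

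In ACHN none of 37 mitochondrial genes was called, where 0% of the 15116 genes tested was. At an unadjusted p under 0.05 limma gave 2 members, MT-TV and MT-TI, where 8.19% of all genes were, and limma-voom gave 0 calls over all genes. The mRNAs ran from −0.087 for MT-ND6 to 0.17 for MT-CYB, and 12 of 13 were above 0. MT-CYB differed by 0.17 ± 0.12 (adjusted p = 0.836 from limma) and MT-CO1 by 0.12 ± 0.13 (adjusted p = 0.944). The rRNAs differed by 0.092 ± 0.14 and 0.11 ± 0.11 for MT-RNR1 and MT-RNR2.

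With the replicate block 2 tRNAs were called in ACHN, where 12.2% of all genes were called. MT-TV rose by 0.82 ± 0.12 on the log2 scale (adjusted p = 0.0250 from limma with the block) and MT-TW by 0.80 ± 0.13 (adjusted p = 0.0278), each in 3 of 3 pairs. MT-TV had 26, 33 and 32 reads under siNUF2 and 10, 25 and 20 under siControl, and MT-TW had 9, 22 and 13 and 4, 12 and 10, so both rest on few reads. With limma-voom on the reads the block called MT-CYB, MT-TN and MT-TC instead, where 24.1% of all genes were called, and with no filter it called 0 members and 0 genes in all. Of the 37 members 2 did not overlap between the groups, MT-TV higher and MT-TI lower (−0.36 ± 0.13, adjusted p = 0.509 from limma), where 14.6% of all genes did not overlap. MT-TI had only 5, 4 and 4 reads under siNUF2 and 5, 6 and 6 under siControl, so its separation rests on very few reads.

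The difference of the response between the lines was tested in a fit of all 12 libraries. No member was called, where 0% of 16564 genes was, and with the replicate block no member was called either, where 1.52% of genes were. At an unadjusted p under 0.05 limma gave 776 genes without the block. For the mRNAs the log2 difference in ACHN minus that in 769-P ran from −0.092 for MT-ND2 to 0.070 for MT-CO1. MT-CYB had a difference of −0.0084 ± 0.17 between the lines. The lowest adjusted p of a member with the block was 0.109, for MT-TW.

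The order of replicates was compared between the siRNA groups. In 769-P 10 of 13 mRNAs had their 3 replicates in the same order under siNUF2 and siControl, where 35.8% of all genes did, and in ACHN 6 of 13, where 51.5% of all genes did. Of the tRNAs 3 of 21 did so in 769-P and 7 of 22 in ACHN, below the shares over all genes, and of the rRNAs 1 of 2 and 2 of 2. The SD between replicates of a group had a median of 0.20 over the members in 769-P and 0.25 in ACHN on the log2 scale. Over all genes tested the median SD was 0.15 and 0.23, and over genes of at least 100 FPKM it was 0.092 and 0.18. The medians over the members take in the tRNAs, most of which have few reads. Among the 13 mRNAs alone the middle SD was 0.093 in 769-P (MT-ND1) and 0.12 in ACHN (MT-CO3). Within the members the spread differed by kind of RNA, with a median SE of the mRNA differences of 0.075 in 769-P against 0.28 for the tRNAs.

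The nuclear genes that make and use mitochondrial RNA were taken from 7 lists, with 190 genes in the tables. In 769-P 14 of 187 tested were called, 6 higher and 8 lower, which is 7.49% against 9.98% of all genes, and with the replicate block 45 were called, 20 higher and 25 lower, which is 24.1% against 27.5%. In ACHN 0 of 187 were called by limma, and 14 with the block, 12 higher and 2 lower, which is 7.49% against 12.2%. The central factors did not pass the test without the block in either line. The polymerase POLRMT differed by −0.049 ± 0.15 in 769-P and −0.059 ± 0.33 in ACHN on the log2 scale, the packaging and initiation factor TFAM by −0.21 ± 0.069 and −0.032 ± 0.15, the initiation factor TFB2M by −0.13 ± 0.094 and −0.055 ± 0.083, and the elongation factor TEFM by 0.32 ± 0.10 and 0.19 ± 0.14. With the block TFAM (adjusted p = 0.0347 from limma) was lower and TEFM (adjusted p = 0.0378) higher in 769-P.

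LRPPRC and SLIRP, which form a complex that keeps mitochondrial mRNAs stable, had log2 differences of 0.20 ± 0.10 and −0.20 ± 0.086 under siNUF2 for 769-P against 0.18 ± 0.092 and −0.0068 ± 0.088 for ACHN, and of these LRPPRC in 769-P passed with the block (adjusted p = 0.0250 from limma). The poly(A) polymerase MTPAP differed by 0.11 ± 0.10 and 0.043 ± 0.12, and the tRNA-processing enzyme ELAC2 by 0.052 ± 0.077 and 0.016 ± 0.086. The degradation enzymes PNPT1 and SUPV3L1 stood at 0.43 ± 0.19 and 0.0079 ± 0.084 for 769-P against 0.20 ± 0.085 and 0.050 ± 0.12 for ACHN. The replication helicase TWNK differed by −0.18 ± 0.11 and −0.013 ± 0.13, and the DNA polymerase POLG by 0.094 ± 0.10 and 0.005 ± 0.17.

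The lists are given one by one for 769-P, where 9.98% of all genes were called, or 27.5% with the block. Of the transcription and nucleoid list 1 of 24 was called in 769-P, the matrix protease LONP1, which degrades TFAM (1.03 ± 0.22, adjusted p = 0.0321 from limma). The RNA processing list had 1 of 33, METTL17, an assembly factor of the small ribosomal subunit (0.36 ± 0.086, adjusted p = 0.0457). The list of RNA stability and decay had 0 of 7, and the translation list had 1 of 16, the ribosome recycling factor GFM2 (0.57 ± 0.13, adjusted p = 0.0348). Of 20 mitochondrial tRNA synthetases TARS2 was higher (0.58 ± 0.071, adjusted p = 0.00799) and MARS2 lower (−0.47 ± 0.11, adjusted p = 0.0434). Of 10 regulators of biogenesis 2 were lower, the coactivator PPARGC1A (−0.49 ± 0.091, adjusted p = 0.0228) and CREB1 (−0.43 ± 0.084, adjusted p = 0.0254). Of 77 mitoribosomal proteins 2 were higher and 5 lower, with MRPS34 at 0.67 ± 0.12 (adjusted p = 0.0190), MRPS35 at −0.47 ± 0.074 (adjusted p = 0.0145) and MRPL34 at −0.45 ± 0.081 (adjusted p = 0.0213), all from limma. With the block the calls rose to 7 of 24 in the transcription and nucleoid list, 3 of 33 in RNA processing, 1 of 7 in RNA stability, 2 of 16 in translation, 9 of 20 synthetases (6 higher, 3 lower), 3 of 10 regulators and 20 of 77 mitoribosomal proteins.

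The lines were compared in the 6 siControl libraries, with each line in its own medium. Here 19 of 36 members were called by limma, 52.8% against 61.5% of all 15376 genes tested, 14 higher in 769-P and 5 higher in ACHN. Under upper-quartile scaling, which moved the median difference of all genes from 0.037 to 0.17 on the log2 scale, the split was 17 higher and 3 lower. Both rRNAs were higher in 769-P, MT-RNR1 by 1.83 ± 0.12 on the log2 scale, a fold of 3.57 (adjusted p = 3.58e-05 from limma), and MT-RNR2 by 1.61 ± 0.15, a fold of 3.05 (adjusted p = 0.000133). The 6 siNUF2 libraries gave 1.80 ± 0.12 and 1.44 ± 0.13 (adjusted p = 4.71e-05 and 0.000145 from limma). They are other libraries of the same lines and media, and same-numbered libraries of a line deviated together. The siNUF2 libraries are therefore not an independent repeat of the line comparison.

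Of the 13 mRNAs 4 were called between the lines. MT-CO1 was higher in 769-P by 0.73 ± 0.15, a fold of 1.66 (adjusted p = 0.00556 from limma), and MT-ND5 and MT-ND6 by 0.34 ± 0.10 and 0.33 ± 0.11 (adjusted p = 0.0257 and 0.0405). MT-ND1 differed by −0.32 ± 0.12 (adjusted p = 0.0482), close to the threshold. In the siNUF2 libraries MT-CO1 and MT-ND6 were called again (0.67 ± 0.16 and 0.40 ± 0.12, adjusted p = 0.00930 and 0.0244), while MT-ND5 and MT-ND1 were at 0.29 ± 0.11 and −0.25 ± 0.12 (adjusted p = 0.0542 and 0.103). The mRNAs of MT-CO2 and MT-CO3, from the same strand as MT-CO1, differed by 0.092 ± 0.16 and 0.10 ± 0.16 and did not pass.

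**Figure D3:**
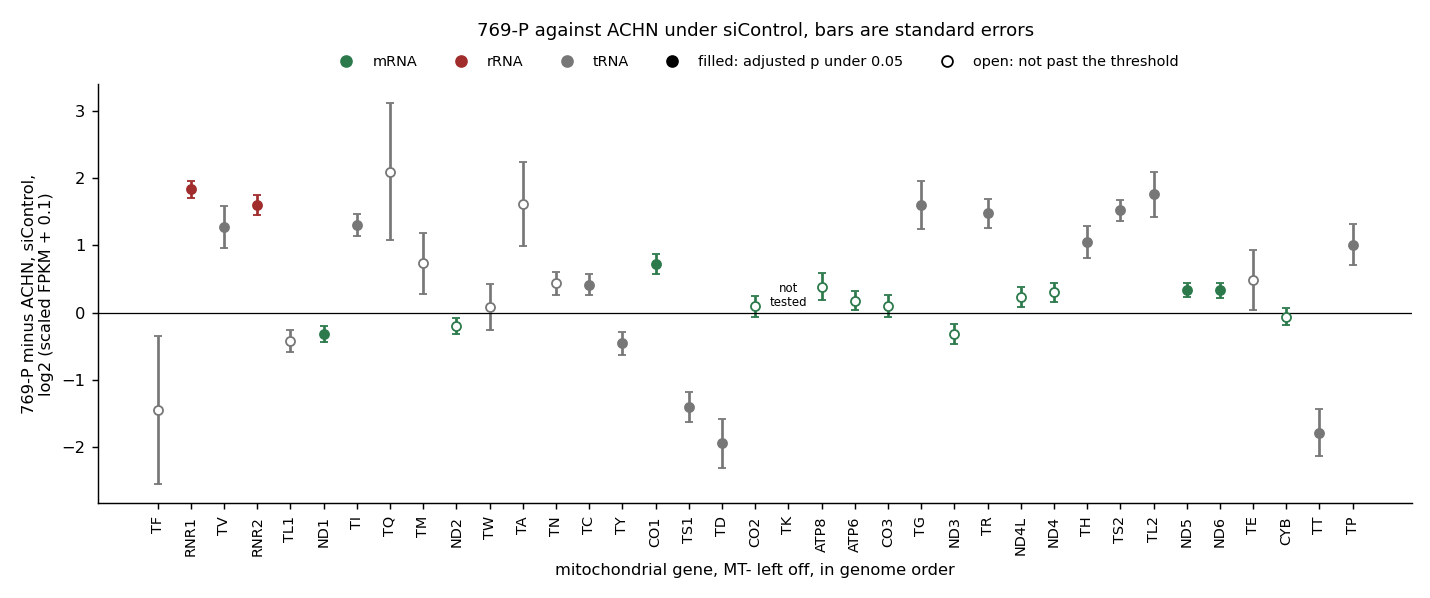
769-P minus ACHN under siControl on the log2 scale of scaled FPKM plus 0.1 for the mitochondrial genes in genome order, with standard errors from limma; filled points passed an adjusted p of 0.05. Both rRNAs lie above 1.5, the 13 mRNAs lie between −0.32 and 0.73, and the tRNAs spread from −1.95 to 2.10.

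Of 21 tRNAs tested 13 were called between the lines, 9 higher and 4 lower in 769-P. The cluster after MT-ND4 was higher in 769-P in all its members, MT-TS2 by 1.52 ± 0.15, MT-TL2 by 1.76 ± 0.34 and MT-TH by 1.05 ± 0.24 (adjusted p = 0.000195, 0.00377 and 0.00809 from limma). In the siNUF2 libraries MT-TS2 was called again (1.86 ± 0.17), while MT-TL2 and MT-TH were at 0.67 ± 0.37 and 0.46 ± 0.27 (adjusted p = 0.155 and 0.191) and did not pass. MT-TG, MT-TR, MT-TI and MT-TV were higher by 1.60 ± 0.35, 1.48 ± 0.22, 1.30 ± 0.16 and 1.28 ± 0.32, and in the siNUF2 libraries by 0.79 ± 0.21, 1.04 ± 0.088, 1.87 ± 0.27 and 1.04 ± 0.27, all called in both. Under siControl MT-TI had 11, 11 and 16 reads in 769-P and 5, 6 and 6 in ACHN. MT-TV had 43, 42 and 27 reads in 769-P and 10, 25 and 20 in ACHN. With so few reads, counting error limits their precision, and the standard error of MT-TI may understate it. Of the 4 reverse-strand tRNAs with the most reads, MT-TP was higher by 1.01 ± 0.30 and MT-TC by 0.42 ± 0.15, MT-TY was lower by 0.46 ± 0.17, and MT-TN differed by 0.44 ± 0.17 without passing (adjusted p = 0.0624). MT-TC and MT-TY, which share a base in the sequences above, thus differed in opposite directions, both close to the threshold (adjusted p = 0.0494 and 0.0485 from limma). In the siNUF2 libraries MT-TY passed (−0.56 ± 0.11, adjusted p = 0.00475) and MT-TC did not (0.43 ± 0.19, adjusted p = 0.0887).

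MT-TD, MT-TT and MT-TS1 were lower in 769-P by 1.95 ± 0.36, 1.79 ± 0.35 and 1.41 ± 0.23 on the log2 scale (adjusted p = 0.00314, 0.00406 and 0.00163 from limma), and in the siNUF2 libraries they were lower as well (−1.66 ± 0.21, −1.45 ± 0.29 and −2.15 ± 0.35). Of the 19 members called under siControl, 14 were called in the siNUF2 libraries too. The calls of 13, both rRNAs and MT-CO1 among them, held without each library in turn and under each other scaling. MT-TP and MT-ND5 each lost theirs without 2 of the 6 libraries, MT-TC without 3, MT-ND1 and MT-ND6 without 4 and MT-TY without 5. Scaling alone also ended calls, those of MT-ND6 and MT-TC under median-ratio scaling and without further scaling. Upper-quartile scaling ended those of MT-ND1 and MT-TY. Each 769-P siControl library, and ACHN siControl replicates 2 and 3, ended 1 or more of these calls when left out. The siControl groups of the lines did not overlap for 22 of 36 members, where 68.5% of all genes did not overlap. How RNA was selected for the libraries is not given in the sources used here. Of 7 nuclear RNAs without a poly(A) tail, RN7SK, RN7SL1, RMRP, RPPH1 and SCARNA2 were listed at 0 in all 12 libraries. For RMRP, which has 2 entries, only the first was read. TERC was at most 0.0601 FPKM, and RN7SL2 was at 1241 to 3589 FPKM in 769-P siControl and 4120 to 5590 FPKM in ACHN siControl, higher in ACHN. Under siNUF2 the lines overlapped for RN7SL2, at 676 to 2313 FPKM in 769-P and 2028 to 3795 FPKM in ACHN. The part of RNA selection in the difference of the rRNAs was not tested.

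The nuclear lists were also compared between the lines. Of 188 genes tested 124 were called, 107 higher and 17 lower in 769-P, or 66.0% against 61.5% of all genes. Over all genes 4949 were higher and 4512 lower. The lists lay on either side of the share of all genes. Transcription and nucleoid (41.7%), RNA stability (42.9%), translation (50%) and biogenesis regulators (50%) were below it. RNA processing (64.7%), synthetases (75%) and mitoribosomal proteins (79.2%) were above it. The mitoribosomal proteins gave 57 higher and 4 lower of 77, and the mitochondrial tRNA synthetases 14 higher and 1 lower of 20, with median differences of 0.81 and 0.76 on the log2 scale against 0.037 over all genes. TFB2M was higher in 769-P by 0.88 ± 0.10, ELAC2 by 0.80 ± 0.086, SLIRP by 0.53 ± 0.089, TFAM by 0.49 ± 0.13 and SUPV3L1 by 0.36 ± 0.089 (adjusted p = 0.000324, 0.000284, 0.00207, 0.0146 and 0.0112 from limma). POLRMT differed by 0.31 ± 0.25 and LRPPRC by −0.12 ± 0.10 without passing. PPARGC1A, the coactivator of biogenesis, was higher in 769-P by 4.81 ± 0.24 (adjusted p = 1.16e-05).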

How the data were processed

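Total RNA of 12 libraries was sequenced on the Illumina platform. The study's methods name fastp for read filtering, and the submitters' processing notes name HISAT2 2.0.5, featureCounts 1.5.0-p3 and hg38. The annotation, the strand setting and the rule for shared bases are not given in the sources used here. The authors deposited 1 table of FPKM per library. GENCODE 29 exon lengths turned these into whole reads (tolerance 0.02 of a read) for 97.0% of the genes above 0, between 29156132 and 38662438 reads per library, whose counting error limits the precision of low genes.

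Differences were fitted with limma 3.58.1 in R 4.3.3 (lmFit, eBayes with a trend) on log2(TMM-scaled FPKM + 0.1), a scale that understates changes of low genes. Genes needed a scaled FPKM of at least 0.5 in 3 libraries, p-values were adjusted by Benjamini-Hochberg over all genes tested, and a gene was called at an adjusted p under 0.05. Each line was fitted alone, the difference of responses over 12 libraries and the lines over the 6 siControl libraries. limma-voom on the recovered reads called 1870 genes in 769-P and 0 in ACHN. The pipeline was tested on simulated data.

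Same-numbered libraries deviated together within a line (correlations 0.359, 0.271 and 0.190 in 769-P, 0.648, 0.735 and 0.460 in ACHN), so the numbers were taken to pair them there. This pairing comes from the data, since no label says what a number shares.

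All 37 genes named MT- were described. Of the cell markers, 1 is not reported here. From the nuclear lists, 12 central factors were always named, with up to 3 genes of lowest p per list among those called in a line, and nuclear copies above 10 FPKM in every library. The members and lists were chosen with earlier results of these data known. Every comparison was repeated with other scalings, pseudocounts and filters, with the replicate block and without each library in turn. Fits on the recovered reads, and fits that joined the block with another choice, were added after seeing the data.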

Additional observations from a re-analysis of the deposited data

Results flagged for a closer look

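MT-TP differed in sign between the lines: in 769-P it was higher under siNUF2 in 3 of 3 same-numbered pairs and in ACHN lower in 3 of 3. The response in ACHN minus that in 769-P was −0.16 ± 0.48 on the log2 scale (SE), and its adjusted p was 0.181 from limma with the replicate block and 1.00 without it, so the test of the difference did not pass.

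MARS2, the mitochondrial methionyl-tRNA synthetase, had a response in ACHN minus that in 769-P of 0.54 on the log2 scale. This difference passed with the replicate block (adjusted p = 0.0343 from limma) and not without it (adjusted p = 0.864). The log2 difference between siNUF2 and siControl was −0.47 ± 0.11 in 769-P and 0.058 ± 0.10 in ACHN.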

How the results depend on the processing

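In 769-P the members called under siNUF2 numbered 0 without the replicate block, 5 with it, 6 with the block and median-ratio scaling, 6 with the block and scaling to the nuclear genes and 7 with the block and limma-voom, and 0 to 1 without a library. In ACHN the block gave 2, with median-ratio scaling 2, with scaling to the nuclear genes 2 and with limma-voom 3. With the block and no filter both lines gave 0, where 4.81% of all genes were called in 769-P and 0% in ACHN. The nuclear lists moved from 14 calls in 769-P to 45 with the block and 4 without a filter, and from 0 in ACHN to 14 with the block. Over all genes 769-P had 1412 calls, 635 without a filter, 160 at an adjusted p under 0.01, 700 in the fit of 12 libraries and 357 to 1144 without a library, and ACHN had 171 in the fit of 12 libraries. Between the lines 19 members were called, 12 without a filter, 12 at an adjusted p under 0.01 and 14 to 22 without a library. The shares of all genes called fell as well, from 61.5% to 33.3%, 46.1% and 50.9% to 58.3% in these settings. Replicate numbers did not pair the lines, and the block there gave 14 members, where 59.5% of all genes were called. The mRNA share of 19.9%, 19.1%, 18.4% and 17.8% of FPKM (769-P siNUF2 and siControl, ACHN siNUF2 and siControl) became 25.8%, 24.8%, 21.6% and 20.7% with the rRNAs and tRNAs, and 5.74%, 5.47%, 4.74% and 4.53% as a share of reads. No value that passed the test changed sign under any setting run. The block changed no call of a member in the difference of responses. Depth limits the tRNAs with few reads, and the cause of these changes was not tested.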
